A study of Homo sapiens with 4 samples.

Results

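The interferon-stimulated genes followed here are 44 genes chosen by symbol, of 19610 symbols with FPKM (a measure of reads scaled for transcript length and library size) in hFOB 1.19 cells. The members were chosen with earlier results of these data known, so their shares beside those of all genes describe this set only. For each symbol the FPKM of its transcripts were summed, which for the members meant 169 transcripts. All 44 members were listed, each under 1 gene ID, and all had an FPKM of at least 1 in at least 1 library, as did 12859 symbols in all. hFOB 1.19 is a clonal human fetal osteoblast line that carries a temperature-sensitive SV40 large T antigen, so that it proliferates at a permissive temperature and stops dividing and differentiates at a higher one. The series holds 4 libraries of total RNA depleted of ribosomal RNA, 1 each from control cells on day 0, at the permissive temperature, and from cells on days 3, 6 and 9 of differentiation, at the higher temperature. The labels name no interferon or virus treatment in any library, so the name of the gene set rests on what is known of the genes and not on a response induced here. Differentiation and the change of temperature cannot be told apart in a comparison with day 0, whereas days 3, 6 and 9 share the higher temperature. With 1 library per time point there is no replicate check, no test was made, and every difference below compares libraries. In bulk RNA, fewer cells that express a gene and less RNA per cell cannot be told apart.

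Type I interferons bind a receptor of IFNAR1 and IFNAR2, whose kinases JAK1 and TYK2 phosphorylate STAT2 among others. STAT2 and IRF9 act in a complex that binds the interferon-stimulated response element (ISRE) in the promoters of interferon-stimulated genes, while interferon gamma acts through a gamma-activated site (GAS). The products of the induced genes sense viral RNA, block the entry, translation or replication of viruses, or regulate the pathway itself, and many cell types keep them at a low basal level without infection. In bone, interferons are known mainly for restraining the formation of osteoclasts.

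The promoters of the members are shown first, because the ISRE is known from promoters of interferon-stimulated genes. The members were chosen by symbol as such genes, so a higher share of matches among them is in part given by that choice. The shares below describe the set and are no independent support for it. Promoter windows of 250 bases before to 50 bases after each start were taken from RefSeq (GRCh38.p14), where 36 of the 44 members had 47 windows. DDX58 was matched under its current symbol RIGI, and IFIT2, MX2, OAS2, OASL, IRF7, USP18, IFITM2 and TRIM22 were not matched. An ISRE core, spelled GAAANNGAAA and searched on both strands, was in 28 of the 47 member windows, or 59.6%, against 3.57% of all 35116 windows. By gene, 24 of 36 members held a match, or 66.7%, against 4.38% of 27305 genes, and the mean number of windows was 1.31 per member and 1.29 per gene of the table. At least 2 matches were in 15 member windows, 31.9% against 0.259% of all windows. A GAS, spelled TTCNNNGAA, was in 12 member windows, or 25.5%, against 7.66% of all windows, and in 6 of the 12 a GAS match overlapped an ISRE match. Windows of the same gene can overlap, so that a match can count for both. Windows of PARP9 and DTX3L also overlap, on opposite strands, and the ISRE match counted for each gene is the same stretch. A match is a stretch of letters and not a measured binding site. A window without a match can hold a related spelling that was not searched. The 250 bases before the start are printed below for 4 members that were lower on day 9 than on day 0 and for 3 that were higher. They are given on GRCh38.p14, 5′ to 3′ along the gene, with capitals for the ISRE matches and, in IRF1 alone, for the GAS match.
IFIT1 (chr10:89392373-89392622, + strand): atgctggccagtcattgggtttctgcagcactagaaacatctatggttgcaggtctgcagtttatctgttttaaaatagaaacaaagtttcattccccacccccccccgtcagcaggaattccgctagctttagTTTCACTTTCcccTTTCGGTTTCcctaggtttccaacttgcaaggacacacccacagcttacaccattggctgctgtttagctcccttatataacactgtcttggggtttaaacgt
ISG15 (chr1:1013247-1013496, + strand): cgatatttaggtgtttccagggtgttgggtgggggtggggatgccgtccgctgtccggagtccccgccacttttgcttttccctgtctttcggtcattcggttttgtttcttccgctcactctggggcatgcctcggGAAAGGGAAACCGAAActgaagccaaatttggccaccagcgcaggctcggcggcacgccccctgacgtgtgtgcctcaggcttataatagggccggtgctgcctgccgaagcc
IFI6 (chr1:27672193-27672442, - strand): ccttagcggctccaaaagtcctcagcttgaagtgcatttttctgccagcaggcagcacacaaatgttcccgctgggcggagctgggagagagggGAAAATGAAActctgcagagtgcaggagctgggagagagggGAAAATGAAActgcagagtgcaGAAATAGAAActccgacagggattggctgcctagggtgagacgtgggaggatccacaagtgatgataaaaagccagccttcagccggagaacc
IFI44L (chr1:78620198-78620447, + strand): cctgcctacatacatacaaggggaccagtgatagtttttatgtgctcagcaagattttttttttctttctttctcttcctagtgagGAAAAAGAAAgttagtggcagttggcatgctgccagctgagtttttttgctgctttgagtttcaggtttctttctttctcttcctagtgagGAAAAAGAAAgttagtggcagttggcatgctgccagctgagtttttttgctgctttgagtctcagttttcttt
HERC5 (chr4:88456869-88457118, + strand): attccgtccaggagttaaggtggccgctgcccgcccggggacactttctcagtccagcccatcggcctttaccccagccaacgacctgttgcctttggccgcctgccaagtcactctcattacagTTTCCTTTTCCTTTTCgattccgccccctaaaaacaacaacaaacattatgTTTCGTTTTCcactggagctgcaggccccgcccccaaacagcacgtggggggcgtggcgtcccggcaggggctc
CXCL10 (chr4:76023498-76023747, - strand): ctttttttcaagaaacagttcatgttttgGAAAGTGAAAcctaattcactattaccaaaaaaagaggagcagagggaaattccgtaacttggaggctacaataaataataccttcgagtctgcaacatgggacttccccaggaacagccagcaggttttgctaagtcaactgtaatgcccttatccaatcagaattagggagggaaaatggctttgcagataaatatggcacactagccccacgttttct
IRF1 (chr5:132490774-132491023, - strand): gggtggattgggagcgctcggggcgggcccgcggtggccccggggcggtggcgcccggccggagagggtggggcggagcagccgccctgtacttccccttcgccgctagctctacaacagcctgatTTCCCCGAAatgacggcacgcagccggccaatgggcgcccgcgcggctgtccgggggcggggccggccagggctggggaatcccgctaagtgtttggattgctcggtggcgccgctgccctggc

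In IFIT1 the matches began 116 and 103 bases before the start, on the opposite strand. The matches of ISG15 began 113 and 107 bases before the start and overlapped each other. IFI6 held 3 matches, 156, 115 and 93 bases before the start, and IFI44L held the same letters 164 and 73 bases before its start. HERC5, which was higher on the later days, also held 3 matches, and its neighbour HERC6, which was lower, held none in its window. CXCL10 had its match 221 bases before the start, and IRF1 had no ISRE match but a GAS 124 bases before its start. Of the 47 ISRE matches in member windows, 46 began before the start and 37 lay within 150 bases of it.

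**Figure D1:**
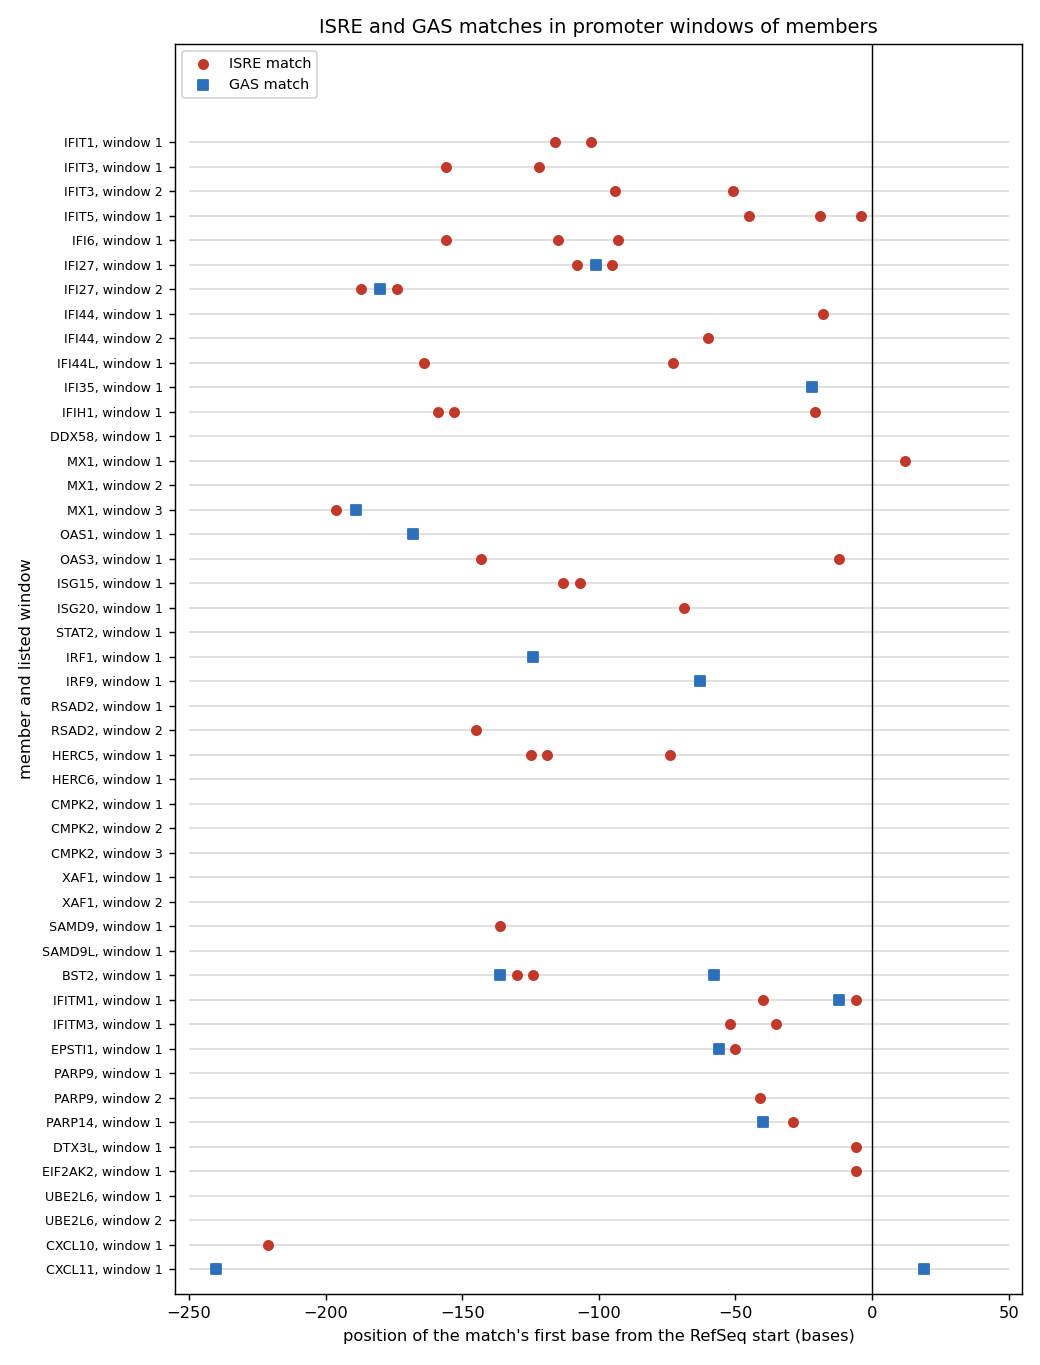
Positions of ISRE matches (red circles) and GAS matches (blue squares) in the 47 RefSeq promoter windows of 36 members, with the distance of the match's first base from the start in bases on the horizontal axis and 1 grey line per window. Most ISRE matches, 37 of 47, lie within 150 bases before the start. The windows of 12 members, HERC6, CMPK2 and IRF1 among them, hold no match to the spelling GAAANNGAAA.

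On day 3 the members lay on both sides of their day 0 level, 22 above and 22 below. On days 6 and 9 most were below it, 35 and 37 of 44. Of all 12859 genes, 7085, 7053 and 7088 were below day 0 on days 3, 6 and 9. A member was counted as higher or lower where its log2 ratio of (FPKM + 1) was at least 1 or at most -1, which is a 2-fold limit and not a test, and which understates the change of genes with a low FPKM. On day 3, 2 members were higher than on day 0 (HERC5 and TRIM22), as were 8.13% of all genes, and 4 were lower (CMPK2, HERC6, IFIT1 and OASL), as were 5.3% of all genes. On day 6, 18 of 44 members were lower, against 6.42% of all genes, and 3 were higher (CXCL10, IRF1 and TRIM22), against 9.01%. On day 9, 21 members were lower, against 6.52% of all genes, and 4 were higher (CXCL10, HERC5, IRF1 and TRIM22), against 9.6%. These 3 comparisons share the day 0 library.

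The median log2 ratio of the 44 members to day 0 was 0.01 on day 3, -0.73 on day 6 and -0.96 on day 9, where the median of all genes was -0.08, -0.08 and -0.09. Their summed level was 4628, 6230, 3405 and 2869 FPKM on days 0, 3, 6 and 9, or 0.749%, 1.16%, 0.624% and 0.503% of all FPKM. The rise of the sum on day 3 came mostly from IFI27, described below, and the median member was at 28.4, 32.4, 14.8 and 13.3 FPKM. On all 3 later days, 4 members were at least 2-fold lower than on day 0, against 3.45% of all genes, and TRIM22 alone was at least 2-fold higher, against 5.93%. There were 17 members at least 2-fold lower on both day 6 and day 9, against 4.91% of all genes, and 18 members stayed within 2-fold of day 0 throughout, against 78.9%.

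**Figure D2:**
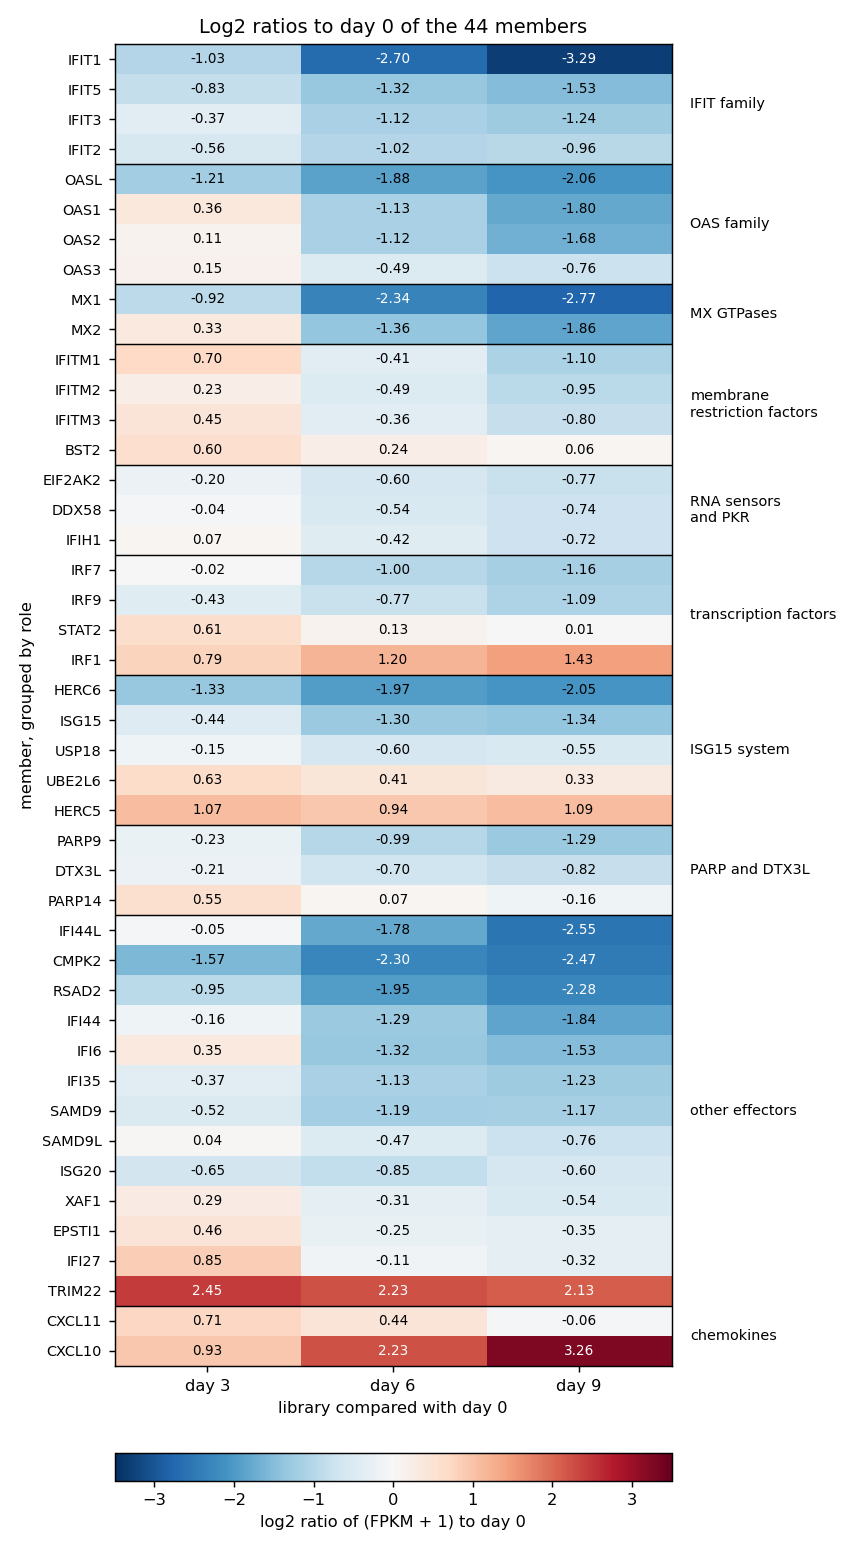
Log2 ratio of (FPKM + 1) to day 0 for the 44 members (rows, grouped by role) on days 3, 6 and 9 (columns), with blue for lower and red for higher than day 0 and 1 library behind each value. On day 3, 22 rows are below 0, on day 6 there are 35 and on day 9 there are 37. Of all 12859 genes, 7085, 7053 and 7088 were below 0 on these days. IFIT1 is the lowest on day 9 at -3.29, while CXCL10 at 3.26 and TRIM22 at 2.13 are the highest.

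The step from day 3 to day 6, at the same temperature, took few genes past the limit, and several of them were members. Between these libraries 57 genes were at least 2-fold lower, 0.443% of all genes, and 9 of them were members: IFI44, IFI44L, IFI6, IFIT1, IFITM1, MX1, MX2, OAS1 and OAS2. The 9 make up 15.8% of the 57 genes and 20.5% of the members. CXCL10 was the only member at least 2-fold higher on this step, against 0.607% of all genes. The median log2 ratio of the members was -0.65 and that of all genes -0.00. Below 0 were 42 of 44 members, against 6483 of all 12859 genes. From day 6 to day 9 no member was at least 2-fold lower, where 0.163% of all genes were, and CXCL10 was again the only one higher, against 0.381%. The median of the members on that step was -0.20 and that of all genes 0.01.

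By order of the days, 37 members had a lower FPKM on day 6 than on day 3 and a still lower one on day 9, whatever the size, as did 26.4% of all genes. These fell into 2 shapes of about equal number. In 18 members every step from day 0 on was downward, against 13% of all genes, and in 19 the level on day 3 was above day 0 before the downward steps, against 13.4%. ISG15, MX1, IFIT1 and IRF9 had the first shape, and IFI6, IFI27, OAS1 and the IFITM genes the second. CXCL10, HERC5 and IRF1 were highest on day 9.

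**Figure D3:**
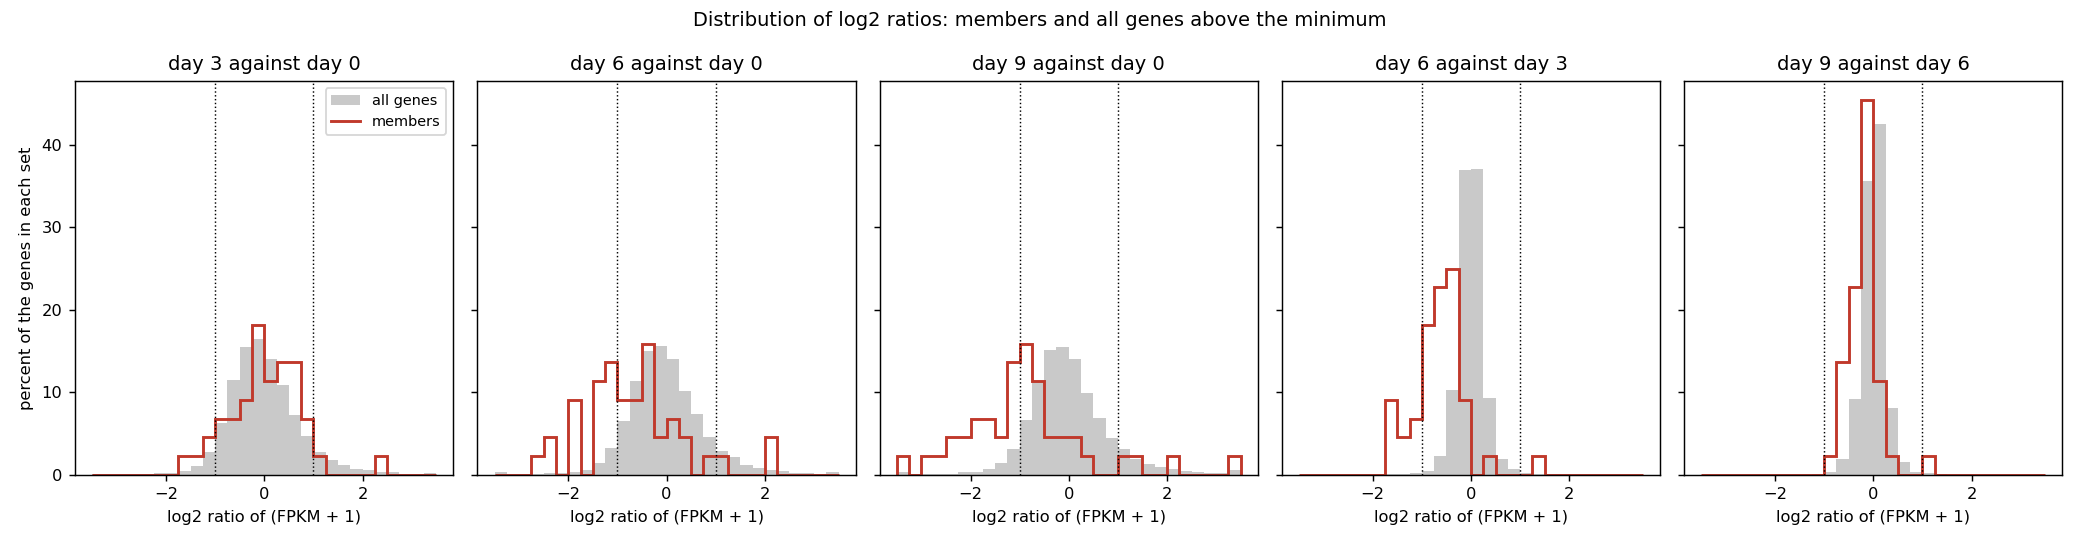
Distribution of log2 ratios of (FPKM + 1) in 5 comparisons, as the percent of each set in bins of the ratio, for all 12859 genes (grey) and the 44 members (red line), with dotted lines at the 2-fold limit and ratios beyond 3.5 in either direction placed in the end bins. The members are shifted to the left of the other genes on days 6 and 9, and on day 6 against day 3 their median is -0.65 where that of all genes is -0.00.

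The 3 members grouped here as RNA sensors and PKR, IFIH1, EIF2AK2 and DDX58, stayed within the 2-fold limit. IFIH1, which encodes the long double-stranded RNA sensor MDA-5, was at 17.2, 18.1, 12.6 and 10.03 FPKM on days 0, 3, 6 and 9. EIF2AK2, which encodes PKR, the kinase that stops translation when it binds double-stranded RNA, was at 96.8, 84.0, 63.7 and 56.3 FPKM in the same order of days, which is the order used from here on. DDX58 encodes RIG-I, a sensor of RNA with a 5′ triphosphate, and lay between 12.6 and 21.7 FPKM. On day 9 the log2 ratios of the 3 genes to day 0 were between -0.77 and -0.72, so that all stood at about the same share of their starting level.

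The transcription factors of the pathway diverged. IRF7, the factor that amplifies the production of type I interferon, was at 25.8, 25.5, 12.4 and 11.0 FPKM, and its log2 ratio on day 9 was -1.16. IRF9, the DNA-binding subunit of the complex with STAT2, was at 63.0, 46.3, 36.6 and 29.0 FPKM with a log2 ratio of -1.09, or -0.76 and no longer past the limit with its main transcript (the one with the highest mean FPKM) alone. STAT2, the partner of IRF9 in that complex, stayed between 30.4 and 46.9 FPKM, and on day 9 its log2 ratio to day 0 was 0.01. IRF1, a factor that is itself induced through a GAS, went the other way and was at 26.4, 46.5, 62.1 and 72.9 FPKM, a log2 ratio of 1.43 on day 9. IRF1 had the highest mean level of the 4 and IRF7 the lowest, and by day 9 the FPKM of IRF1 was above that of IRF9, which it had been below on day 0.

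The ISG15 system attaches the ubiquitin-like protein ISG15 to other proteins. ISG15 itself was at 371, 273, 149.9 and 146 FPKM, a log2 ratio of -1.34 on day 9. The E2 enzyme of the system, UBE2L6, lay between 47.8 and 74.7 FPKM and was above its day 0 level on all later days. HERC5, the main E3 ligase for ISG15 in human cells, was at 12.3, 26.9, 24.6 and 27.3 FPKM, with log2 ratios of 1.07, 0.94 and 1.09. HERC6, its close relative beside it on chromosome 4, was at 20.7, 7.59, 4.55 and 4.22 FPKM, with log2 ratios of -1.33, -1.97 and -2.05. The order of the HERC genes was thus reversed: HERC6 had the higher FPKM on day 0 and HERC5 on each later day. USP18, the protease that removes ISG15 and also dampens the interferon receptor, ranged from 9.69 to 15.2 FPKM.

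**Figure D4:**
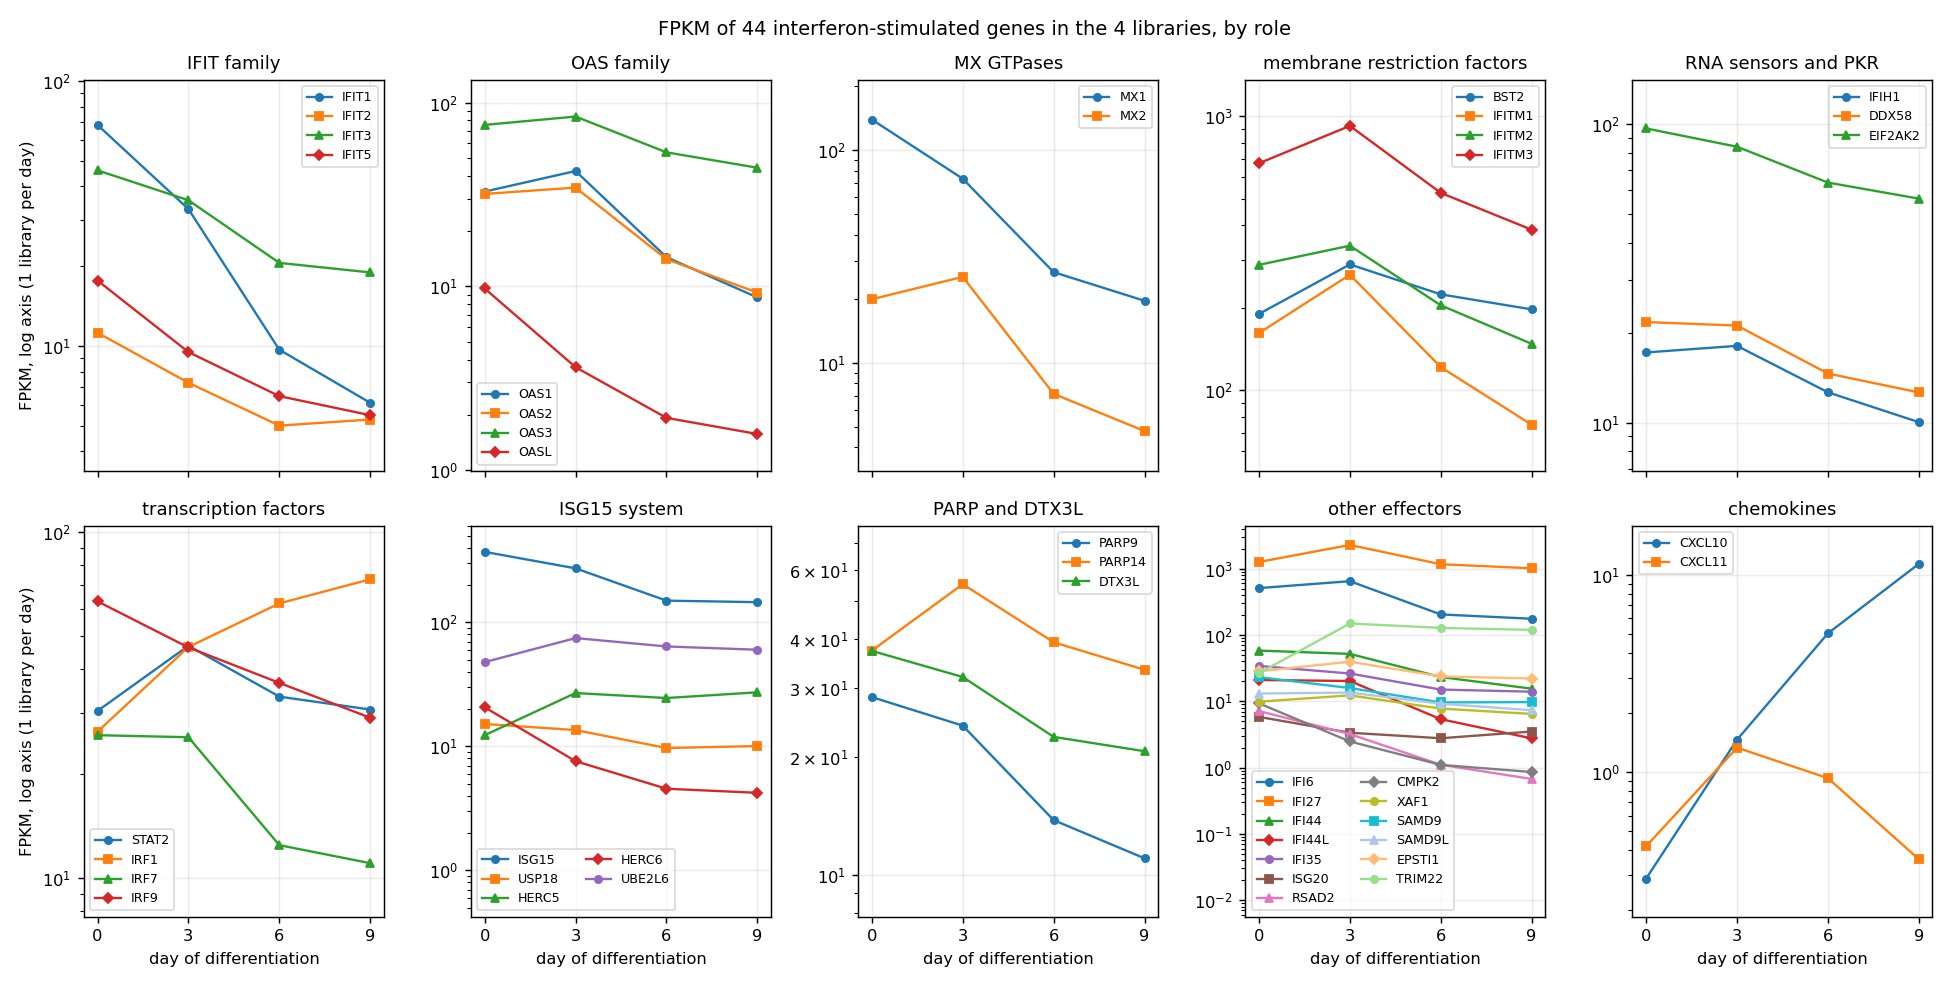
FPKM of the 44 members (log axis) on days 0, 3, 6 and 9 in 1 panel per role, with 1 line per gene and 1 library per point. In the panel of the ISG15 system the lines of HERC5 and HERC6 cross between days 0 and 3, in that of the transcription factors IRF1 goes up from 26.4 to 72.9 FPKM while IRF7 and IRF9 go down, and all 4 IFIT genes end below their day 0 level.

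The IFIT proteins bind viral RNA and keep it from being translated, and IFIT1 fell more than any other member. IFIT1 was at 68.2, 32.9, 9.68 and 6.10 FPKM, so that on day 9 it stood at 8.94% of its day 0 level, a log2 ratio of -3.29. It lost its place as the most abundant member of its family: IFIT3 was at 46.0, 35.5, 20.6 and 18.95 FPKM, a log2 ratio of -1.24 on day 9. IFIT5 was at 17.7, 9.49, 6.47 and 5.48 FPKM with a log2 ratio of -1.53. IFIT2, the lowest of the family, was at 11.2, 7.26, 5.01 and 5.28 FPKM, and its log2 ratio was -1.02 on day 6 and -0.96 on day 9. All 4 genes were below day 0 in each later library, and the family's summed level went from 143 to 35.8 FPKM. The IFIT genes are related copies in 1 cluster on chromosome 10, and how reads shared between copies were assigned is not given in the sources used here.

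The OAS enzymes make the short oligoadenylate messenger that activates RNase L, and OASL is a relative without that activity. OAS1 was at 32.8, 42.4, 14.4 and 8.70 FPKM, a log2 ratio of -1.80 on day 9. OAS2 followed it closely at 31.8, 34.5, 14.1 and 9.25 FPKM with -1.68. OAS3, the most abundant of the family, was at 75.6, 83.9, 53.6 and 44.2 FPKM and stayed within the limit at -0.76. OASL, the least abundant, was at 9.74, 3.63, 1.93 and 1.57 FPKM, and it was already lower on day 3, at -1.21, when the other OAS genes were slightly above day 0. With the main transcript of OAS1 alone, its ratio of day 6 to day 0 was -0.88 and no longer past the limit.

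The MX proteins are dynamin-like GTPases that trap viral components. MX1, which acts on many RNA viruses, was at 139.7, 73.5, 26.7 and 19.6 FPKM, or 14.0% of day 0 on day 9, a log2 ratio of -2.77. MX2, which acts at the nuclear pore, was at 19.9, 25.4, 7.14 and 4.77 FPKM with a log2 ratio of -1.86. On day 3 MX1 already stood at 52.7% of its day 0 level, whereas MX2 stood at 127%.

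The membrane restriction factors were among the most abundant members and 1 of the 4 was past the limit. IFITM3, which blocks the fusion of viruses in endosomes, was at 674, 923, 526 and 386 FPKM, a log2 ratio of -0.80 on day 9. IFITM1, which acts at the cell surface, was at 162, 264, 121 and 74.8 FPKM, with -1.10 on day 9 and -1.11 on day 6 against day 3. IFITM2 ranged from 148 to 337 FPKM. BST2, or tetherin, holds budding viruses on the cell and lay between 189.8 and 288 FPKM, with a log2 ratio of 0.06 on day 9. All 4 were above day 0 on day 3 by 0.23 to 0.70 on the log2 scale. The IFITM genes are related copies whose sequences were not compared here, and how reads shared between them were split is not known, so their separate values are uncertain.

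Of the PARP9, PARP14 and DTX3L group, which modifies proteins with ADP-ribose and ubiquitin in the interferon response, PARP9 was past the limit. PARP9 was at 28.4, 24.1, 13.8 and 11.1 FPKM, a log2 ratio of -1.29 on day 9. DTX3L, its binding partner and an E3 ligase, lay between 20.7 and 37.3 FPKM with -0.82. PARP14, the most abundant of the group, was at 37.3, 55.1, 39.2 and 33.4 FPKM with -0.16.

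The other effectors ranged widely in level, and IFI27 had the highest mean of the set. IFI27, a small mitochondrial and nuclear-envelope protein, was at 1264, 2285, 1169 and 1015 FPKM, and on day 3 it took rank 17 of the 19610 symbols. Its log2 ratio was 0.85 on day 3 and -0.32 on day 9. IFI6, a mitochondrial and endoplasmic reticulum protein that protects cells from apoptosis, was at 510.1, 649, 204 and 176 FPKM, with 0.35 on day 3 and -1.53 on day 9. IFI44L, a feedback regulator of the response, was at 20.9, 20.2, 5.37 and 2.75 FPKM with -2.55 on day 9, and 6 of the 12859 genes had a lower ratio of day 6 to day 3. Its neighbour on chromosome 1, IFI44, was at 58.2, 51.9, 23.2 and 15.5 FPKM with -1.84. Their log2 ratios on day 3 were -0.05 and -0.16, so that nearly the whole difference lay after that day.

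RSAD2 and CMPK2 are neighbours on chromosome 2 with linked activities, since CMPK2 makes the nucleotide that RSAD2 (viperin) turns into a chain terminator. RSAD2 was at 7.12, 3.20, 1.10 and 0.673 FPKM, or 9.45% of day 0 on day 9, a log2 ratio of -2.28. CMPK2 was at 9.30, 2.48, 1.10 and 0.856 FPKM, or 9.21% of day 0, a log2 ratio of -2.47. Both thus ended under the minimum of 1 FPKM. CMPK2 had most of its difference by day 3, at -1.57, as had HERC6 and OASL.

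IFI35, a partner of NMI, was at 34.1, 26.3, 15.02 and 13.96 FPKM with a log2 ratio of -1.23 on day 9, or -0.81 and no longer past the limit with its main transcript alone. SAMD9, a restriction factor of poxviruses, was at 23.1, 15.8, 9.60 and 9.72 FPKM with -1.17. Its paralog SAMD9L ranged from 7.32 to 13.5 FPKM with -0.76. ISG20, a exonuclease, ranged from 2.77 to 5.81 FPKM, XAF1, a promoter of apoptosis, from 6.45 to 12.3 FPKM, and EPSTI1 from 22.1 to 39.5 FPKM, and none of them was past the limit.

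TRIM22, a tripartite-motif protein that restricts HIV and influenza virus, was the exception among the effectors. It was at 26.6, 149.3, 128 and 119 FPKM, with log2 ratios of 2.45, 2.23 and 2.13 on the 3 later days. The whole difference was present on day 3, and each later library was slightly lower. TRIM22 thus moved in the opposite direction to the other 12 genes of its group, which were below day 0 on day 9.

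The chemokines CXCL10 and CXCL11 attract T cells through CXCR3 and were the least abundant members on day 0. CXCL10 was at 0.287, 1.46, 5.04 and 11.4 FPKM, a log2 ratio of 3.26 on day 9 and the only member at least 2-fold higher on each of the steps from day 3 to day 6 and from day 6 to day 9. CXCL11 was at 0.419, 1.33, 0.929 and 0.360 FPKM and did not follow it. With the day 0 level of CXCL10 under 1 FPKM, the ratio depends on the constant added.

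Upstream of the members, the interferon genes were at or near 0. Of 16 interferon ligands, 15 were below 1 FPKM in all 4 libraries, among them IFNB1, the first interferon made by many cells on infection, at 0.0601, 0, 0 and 0.125 FPKM, and IFNG, which was listed at 0. IFNE, an interferon known from the female reproductive tract, was the exception at 1.01, 2.76, 3.21 and 2.39 FPKM, with a log2 ratio of 1.07 on day 6. The 9 receptor and kinase genes were all above the minimum, and none was past the 2-fold limit in any comparison with day 0. IFNAR1 was at 38.1, 35.1, 37.9 and 41.1 FPKM and IFNAR2 at 13.99, 17.3, 20.9 and 16.99 FPKM. JAK1 was at 36.3, 38.1, 42.4 and 49.8 FPKM and TYK2 at 55.5, 57.8, 63.9 and 75.7 FPKM, both highest on day 9. Interferon protein or activity was not measured.

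The factors and sensors that can start interferon production were also listed, and on day 9, 9.6% of all genes were higher and 6.52% lower than on day 0. IRF3 was at 29.7, 27.7, 29.3 and 36.7 FPKM, and IRF2, which competes with IRF1 for the same sites, was at 19.9, 27.9, 37.98 and 41.6 FPKM with a log2 ratio of 1.03 on day 9. Of 18 genes of nucleic acid sensing, 16 were above the minimum, and on day 9, 1 of the 16 was higher and 1 lower, near the shares of all genes. TLR3, an endosomal sensor of double-stranded RNA, was higher (4.41, 12.01, 10.6 and 13.3 FPKM, log2 ratio 1.40). IKBKE, a kinase of IRF3, was lower (6.59, 3.80, 3.55 and 2.22 FPKM, log2 ratio -1.24). Of 8 genes listed as regulators of the pathway, UBA7 was past the limit on day 3, at 1.59, where 8.13% of all genes were higher. It was at 5.06, 17.3, 10.8 and 9.45 FPKM. UBA7 is the E1 enzyme that activates ISG15, so the E1, E2 and HERC5 transcripts of ISG15 conjugation were all above day 0 on the 3 later days, while ISG15 was below it.

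**Figure D5:**
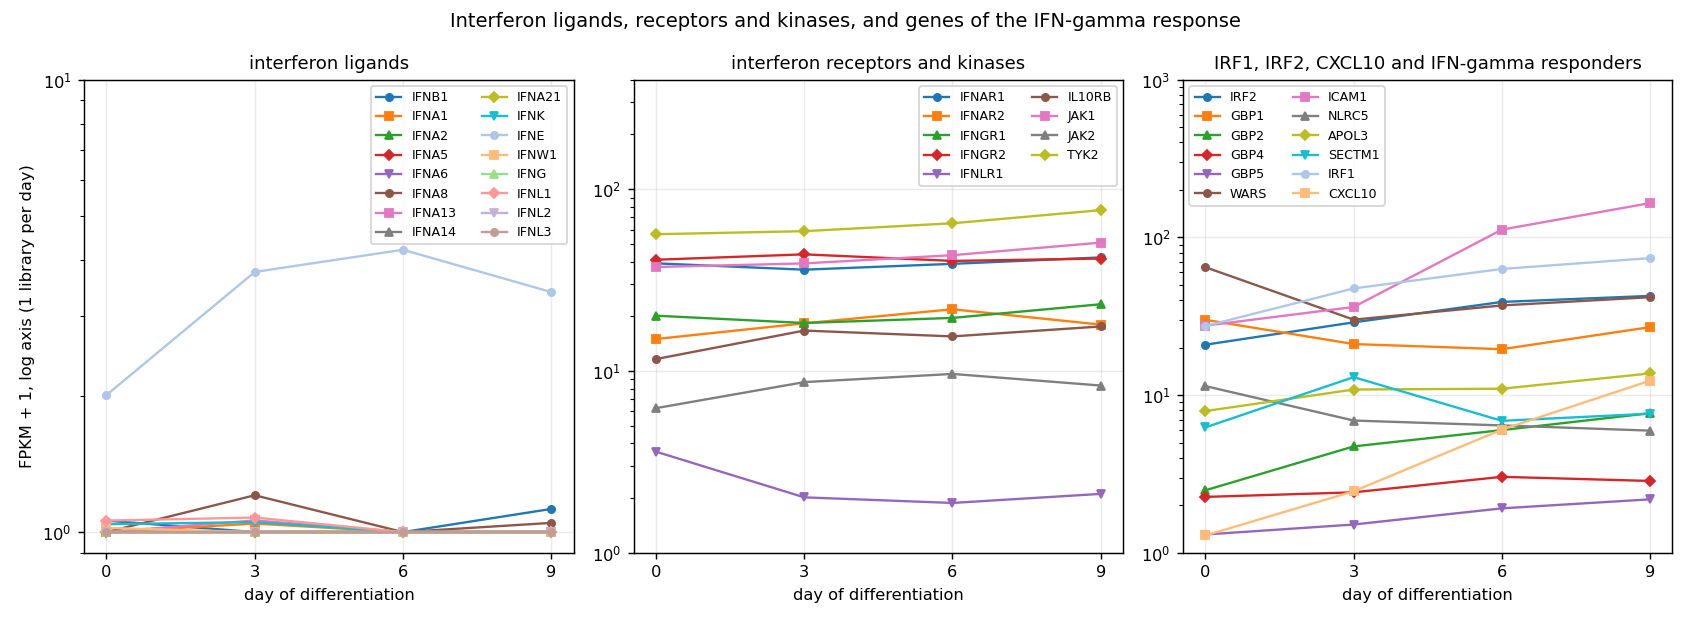
FPKM + 1 (log axis) on days 0, 3, 6 and 9, with 1 library per point, of 16 interferon ligands (left), 9 receptor and kinase genes (middle), and IRF1, IRF2, CXCL10 and 9 genes known to respond to interferon gamma (right). All ligands but IFNE lie near the value of 1 that stands for no FPKM. The receptor and kinase lines stay within 2-fold of day 0 on this scale, and IFNLR1 ends below day 0. ICAM1, IRF1, CXCL10 and GBP2 go up, and NLRC5 goes down.

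Other genes known to be induced by interferon were also measured. Of 34 such genes outside the set, all above the minimum, 4 were lower on day 9 than on day 0 (PNPT1, PLSCR1, TRIM14 and BATF2) and 2 were higher (LAMP3 and APOL1), against 6.52% and 9.6% of all genes. Their median log2 ratio to day 0 was 0.13, -0.02 and -0.16 on days 3, 6 and 9, against -0.08, -0.08 and -0.09 for all genes. On day 6 against day 3 their median was -0.20, and 27 of the 34 were below 0, against 6483 of all 12859 genes. Of the 34, 0 were at least 2-fold lower, against 0.443% of all genes. PNPT1, a mitochondrial RNA exonuclease, was at 21.5, 8.07, 7.88 and 7.71 FPKM with a log2 ratio of -1.37 on day 9. PLSCR1, which restricts viral entry, was at 68.9, 56.1, 36.8 and 28.98 FPKM with -1.22, and TRIM14, an adaptor of MAVS signalling, at 23.8, 15.7, 11.8 and 10.6 FPKM with -1.09. LAMP3 was at 0.946, 2.83, 2.98 and 4.30 FPKM with 1.44, and APOL1, the trypanosome lytic factor, at 12.05, 21.5, 26.2 and 25.8 FPKM with 1.04. BATF2 lies outside the rule for named genes and is named only because the count is small.

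Of 12 genes known mainly for their response to interferon gamma, 9 were above the minimum, with CXCL9, IDO1 and CIITA below it. On day 9, 2 of the 9 were higher than on day 0 and 0 were lower, against 9.6% and 6.52% of all genes. The median log2 ratio was 0.34, with 6 of the 9 above day 0 and 3 below. Of all 12859 genes, 5767 were above day 0 and 7088 below, with a median of -0.09. The 3 were NLRC5, WARS and GBP1, with log2 ratios of -0.94, -0.63 and -0.15. All 3 were also below day 0 on days 3 and 6. ICAM1, an adhesion receptor that is also induced by NF-kB, was at 26.6, 35.2, 111 and 164 FPKM, a log2 ratio of 2.58 on day 9. GBP2, a GTPase of the guanylate-binding family, was at 1.49, 3.73, 5.00 and 6.68 FPKM with 1.62. On day 3, SECTM1 was higher at 1.06 and WARS, a tryptophanyl-tRNA synthetase, was lower at -1.10. IRF1 and CXCL10 are members that interferon gamma also induces, and both were, like ICAM1 and GBP2, higher in each successive library. The list was put together with earlier results of these data in view, and the values describe it only.

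The members were also divided by the promoter match. The 24 members with an ISRE match had a median log2 ratio of -0.96 on day 9, with 12 lower and 2 higher, and the 12 matched members without one had a median of -0.75, with 5 lower and 1 higher, where 6.52% of all genes were lower and 9.6% higher. On day 6 against day 3 the medians were -0.73 and -0.51, with 6 of 24 and 1 of 12 lower, against 0.443% of all genes. CMPK2, HERC6 and OAS1 were lower without a match to GAAANNGAAA in these windows, and HERC5 and CXCL10 were higher with one. Only this spelling was searched, with 2 bases between the GAAA stretches. Windows of OAS1, CMPK2, DDX58, XAF1 and IFI35, counted as without a match, hold GAAA stretches with 1 base between them. The split therefore describes this spelling and does not separate members with an ISRE from members without one.

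The cells carried osteoblast transcripts in part. Of 12 osteoblast markers, 9 were above the minimum, with COL1A1 at 777, 1974, 1587 and 1146 FPKM and RUNX2 at 7.37, 26.2, 19.3 and 18.2 FPKM, while SP7, BGLAP and IBSP were below 1 FPKM in every library. Of 10 leukocyte markers, 8 were below 1 FPKM, among them PTPRC with at most 0.441 FPKM and CD3E listed at 0, and the summed level of the list was 18.5, 39.04, 67.7 and 92.5 FPKM, nearly all of it CD68. Of 5 endothelial markers 3, and of 5 epithelial markers 5, were below 1 FPKM, and the summed levels were 1.29 to 4.15 FPKM and 0.880 to 1.42 FPKM. The sum of FPKM over all symbols lay between 538072 and 617857 and was highest on day 0, and the median FPKM of all genes above the minimum between 13.4 and 14.2.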

How the data were processed

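RNA of 4 hFOB 1.19 samples, 1 per time point, was analysed from the mRNA table, in which the authors deposited FPKM per Ensembl transcript with a gene symbol. The aligner is given by the study's methods as Bowtie with TopHat, and the submitters' processing notes name Bowtie 0.12.2 and the mouse build mm8, which does not match human transcripts. The genome build and the program behind the FPKM are not given in the sources used here. The protocol states RNase R treatment, which digests linear RNA, only for the libraries of mRNA, so its effect on these values is unknown. The study lists the clean reads of each library, but the table holds no read counts per gene, so the depth behind each value is unknown and no counting interval was computed. Another 30 columns of values per sample, in tables of circRNAs, lncRNAs and of the authors' comparisons (fold changes with p-values and q-values), were not used.

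FPKM were summed per symbol with Python 3.11.15, numpy 2.4.6 and pandas 2.3.3 (plots: matplotlib 3.10.9). Symbols that reached 1 FPKM in at least 1 library were kept, 1 was added, and log2 ratios were taken in 5 comparisons with a 2-fold limit. The calculation was checked on simulated data with changes well past the limit in genes above 5 FPKM. Changes near the 2-fold limit and changed genes of lower FPKM were not part of that check. The members and lists were chosen with earlier results of these data known. The 4 FPKM are printed for the 25 members with the largest ratios past the limit and for the highest and lowest of each role, and of genes outside the set for up to 5 per list past the limit against day 0, with IFNB1, IFNAR1, IFNAR2, JAK1, TYK2 and IRF3. A further gene under this rule is not reported here. Marker genes and the few genes that make up a count were named besides. Alternatives were a pseudocount of 0.1, no minimum or 5 FPKM, a 4-fold limit, the main transcript of each symbol, and a rescaling to 1 median. Protein sequences were not analysed here.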

Additional observations from a re-analysis of the deposited data

How the results depend on the processing

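With 1 library per time point, no value here carries a replicate error, and a library that stands apart cannot be told from a time point that does. No paired analysis was possible because every day was sequenced as 1 library and no test was made. Under a 4-fold limit 1 member was higher and 0 lower on day 3 against day 0 (1.66% and 0.77% of all genes), 3 were lower on day 6 (0.925%) and 7 on day 9 (1.03%), 2 were higher on day 9 (2.34%), 0 were higher and 0 lower on day 6 against day 3 (0.07% and 0.0389%), and 0 were higher on day 9 against day 6 (0.07%). A pseudocount of 0.1 FPKM gave 4 members higher on day 3 against day 0 (12% of all genes) and 1 lower on day 9 against day 6 (0.832%). A minimum of 5 FPKM kept 43 members and moved the median of day 3 against day 0 to -0.019. Of 220 single ratios, 209 kept their side of the 2-fold limit with the pseudocount of 0.1, 207 with the main transcript of each symbol and 216 after rescaling to 1 median, and none past the limit changed its sign. The ratios that came under the limit were 7 with the main transcript, among them IFI35 on day 9 against day 0 (-0.81), IRF9 (-0.76) and IFITM1 on day 6 against day 3 (-0.94), and 2 after rescaling, IFIT1 on day 3 (-0.96) and IFIT2 on day 6 (-0.96). The alignment of IFITM, IFIT and OAS proteins was not run.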

Other observations

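The transcripts of some members did not keep their shares. The transcript of EPSTI1 with the highest mean held 70.4%, 48.0%, 44.3% and 38.3% of the gene's FPKM on days 0, 3, 6 and 9, while another rose in share from 19.7% to 43.6% and led on day 9. Taken alone, the first had a log2 ratio of -1.15 on day 9, where the gene as a whole had -0.35. The most abundant transcript of MX2 went from 97.9% to 71.3% of the gene's FPKM between days 0 and 9. That of IFIT3 held 52.0%, 70.0%, 54.2% and 55.7%. ISG15, with 99.7% to 99.9% in 1 transcript, and BST2 and USP18, with 1 listed transcript each, leave no room for such a shift. The FPKM of single transcripts are estimates that share reads, and with 1 library per day no shift in share was tested.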
